A study of Arachis hypogaea with 15 samples.

Results

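The CIN-type TCP genes of cultivated peanut (Arachis hypogaea) were followed here across the shoot apex, the petiole and the leaflets. The members are the genes whose product name in the deposited table is a TCP transcription factor numbered 2, 3, 4, 5, 10, 13, 17 or 24, and 10 of 59878 listed genes met that rule. They were chosen by this name; the rule would also have selected on mean FPKM over the 15 libraries had more than 10 matched, and no gene was dropped by it. TCP2-like, TCP3, TCP3-like, TCP4-like, TCP5-like, TCP13-like and TCP24-like products were found. The numbers 10 and 17 were not among them.

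The study set the shoot apex of a peanut mutant against 4 wild-type (WT) tissues: apex, petiole, terminal leaflets and lateral leaflets. Plants were 40 days old, and each of the 5 groups had 3 libraries, described as biological replicates. The labels give the mutant only by its altered leaflet number, without a gene, an allele or the number of lines, and mutant petioles and leaflets were not analysed here. Peanut is an allotetraploid, so most genes have a counterpart on the A and the B subgenome.

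TCP proteins bind DNA through a basic helix-loop-helix domain of their own kind, and the CIN type is named after CINCINNATA of snapdragon, whose loss leaves the leaf margin growing too long and crinkled. In Arabidopsis these factors end cell proliferation and start maturation in the growing leaf blade, and the mRNAs of TCP2, TCP3, TCP4, TCP10 and TCP24 are cut by the microRNA miR319, while TCP5, TCP13 and TCP17 lack its site. In tomato, a compound-leaved plant, a form of the CIN-type gene LANCEOLATE that escapes miR319 makes the leaf simpler, and too much miR319 makes it more divided.

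The 10 genes lay on 6 chromosomes of the table's annotation of the cultivar Tifrunner (first gene models, as the gene identifiers state). The TCP2-like gene arahy.JF9204.2 (chromosome 3, 141164292 to 141169388, minus strand) and the TCP24-like gene arahy.UL2QPJ.2 (chromosome 13, 144071693 to 144077814, minus strand) shared 8 product names among the 10 genes on each side of them. The gene arahy.7QL5S6.1, TCP3-like (chromosome 3, 28296178 to 28298188, minus strand), and the TCP3 gene arahy.T0E7SC.1 (chromosome 13, 30175294 to 30177526, minus strand) shared 6 neighbour names. The TCP4-like genes arahy.D15RR9.1 (chromosome 8, 34637022 to 34640267, minus strand) and arahy.6TI82F.1 (chromosome 18, 12213609 to 12216824, minus strand) shared 4. Every other pairing of genes that do not overlap shared at most 1 name, so these 3 pairs are treated below as A and B copies.

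No copy was matched to the remaining genes. The TCP13-like gene arahy.N9U68C.1 (110274281 to 110276042, plus strand) and the TCP5-like gene arahy.U9727D.1 (105064759 to 105066057, minus strand) lay on chromosome 10. A further pair of TCP3-like models on chromosome 5, arahy.R7HDMF.1 (38019861 to 38022840, minus strand) and arahy.TSSJ4D.1 (38017524 to 38022145, plus strand), overlapped on opposite strands, and since the sources used here do not say that reads were counted by strand, their values cannot be told apart.

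The authors deposited FPKM, fragments per kilobase of transcript scaled to the mapped fragments of the library, which corrects for transcript length and so allows levels of different genes to be compared. The spacing of low values put the depth of a library roughly at 16.8M to 18.05M fragments, and log2 values of replicate libraries correlated across genes at r = 0.988 to 0.99. Of the 10 members, 8 reached 1 FPKM in at least 3 libraries and were tested. The TCP13-like gene met this in the leaflets and the WT apex, and stayed below 1 FPKM in every mutant apex library. Differences are log2(FPKM + 1) from 1 limma fit over 15 libraries, with Benjamini-Hochberg adjustment over 39031 tested genes and a threshold of 0.05. Values of single copies are uncertain where reads could belong to either copy, so sums of a pair are also given.

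Levels of the members differed widely within each tissue. In WT leaflets the TCP2-like gene arahy.JF9204.2 was the highest member at 129.4 ± 4.15 FPKM in terminal and 144.0 ± 5.25 FPKM in lateral leaflets (SD, n = 3 each). The TCP3-like gene arahy.7QL5S6.1 followed at 104.0 ± 3.24 and 115.5 ± 8.06 FPKM in terminal and lateral leaflets. The TCP4-like genes stayed between 9.72 and 12.56 FPKM in the 6 leaflet libraries, and the TCP5-like gene between 4.09 and 5.44 FPKM. In the apex the order was flatter: the TCP2-like gene again led, while the TCP4-like genes, far below the TCP3 copies in leaflets, were at 11.6 and 10.4 FPKM in WT apices beside 23.9 and 17.5 FPKM for the TCP3 copies.

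**Figure D1:**
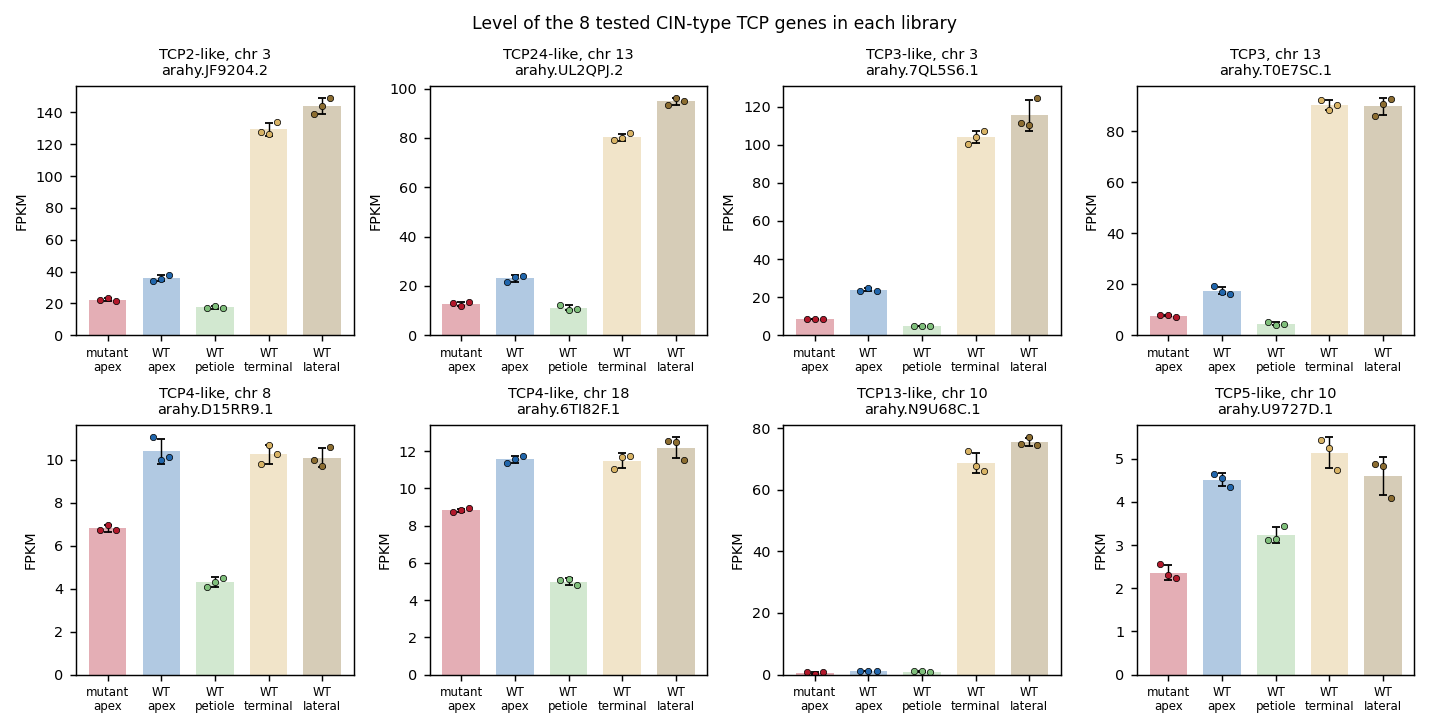
FPKM of the 8 tested CIN-type TCP genes, 1 panel per gene, in mutant shoot apex, WT shoot apex, WT petiole, WT terminal leaflet and WT lateral leaflet; points are libraries, bars are means and error bars are SD (n = 3). The TCP2-like, TCP24-like, TCP3 and TCP13-like genes stand highest in leaflets, while the TCP4-like and TCP5-like genes stand about level in WT apex and leaflets; every mutant apex point lies below every WT apex point.

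The first comparison asked how the apex of the mutant differs from the WT apex. All 8 tested members were lower in the mutant, against 11.9% of all tested genes called lower and 23.7% called higher. Each member also had all mutant libraries below all WT libraries, as did 15.8% of all tested genes. The median log2 difference of the 8 was -0.68, while that of all tested genes was 0.07. With libraries rescaled by median ratio, which moved the median of all genes to -0.01, the share of all tested genes called lower became 18.1%, 44.1% of all calls were higher, against 66.6% without it, and the 8 members were still lower. Whether a tissue holds fewer cells of a type or less RNA per cell cannot be told apart in such bulk libraries.

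The TCP3 pair differed most. The TCP3-like gene arahy.7QL5S6.1 had 8.48, 8.37 and 8.40 FPKM in mutant apices, against 23.33, 24.82 and 23.43 FPKM in WT apices. Every mutant library was far below every WT library, the mutant mean was 35.3% of the WT mean, and the log2 difference was -1.40 ± 0.05 (SE; adjusted p = 1.68e-11, limma). Its B copy, the TCP3 gene arahy.T0E7SC.1, had 7.78, 8.02 and 7.32 FPKM in mutant apices, against 19.12, 17.04 and 16.23 FPKM in WT apices. The groups were again well apart, with the mutant at 44.1% of WT and a log2 difference of -1.08 ± 0.07 (SE; adjusted p = 5.70e-08, limma). In Arabidopsis TCP3 promotes expression of genes that hold back the boundary regulators of the CUC type.

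The TCP2-like and TCP24-like copies, also of the miR319-cut kind in Arabidopsis, were at 62.7% and 55.6% of their WT means. The TCP24-like gene arahy.UL2QPJ.2 had 12.92, 11.93 and 13.58 FPKM in mutant apices, against 21.56, 23.61 and 23.94 FPKM in WT apices. The groups did not overlap, and the log2 difference was -0.80 ± 0.06 (SE; adjusted p = 1.09e-07, limma). The TCP2-like gene arahy.JF9204.2 had 22.44, 23.53 and 21.22 FPKM in mutant apices, against 34.04, 35.32 and 37.85 FPKM in WT apices. Here too the highest mutant library stayed below the lowest WT library, at a log2 difference of -0.65 ± 0.05 (SE; adjusted p = 1.41e-07, limma).

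As a share of the WT level, the smallest falls were those of the TCP4-like genes, whose Arabidopsis namesake is the best studied miR319 target and a brake on blade growth. The copy arahy.D15RR9.1 had 6.71, 6.98 and 6.72 FPKM in mutant apices, against 11.07, 9.98 and 10.12 FPKM in WT apices, a log2 difference of -0.54 ± 0.06 (SE; adjusted p = 3.71e-06, limma). The copy arahy.6TI82F.1 stayed between 8.76 and 8.93 FPKM in mutant apices, against 11.37 to 11.74 FPKM in WT apices, a log2 difference of -0.35 (adjusted p = 4.97e-05, limma). The mutant means were 65.5% and 76.4% of WT for these copies, and neither gene's groups overlapped.

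The TCP5-type genes, which lack the miR319 site in Arabidopsis, were lower as well. The TCP5-like gene arahy.U9727D.1 ranged from 2.23 to 2.55 FPKM in mutant apices, against 4.34 to 4.65 FPKM in WT apices, and its mutant mean was 52.3% of WT (log2 difference -0.71, adjusted p = 3.89e-06, limma). The TCP13-like gene arahy.N9U68C.1 was near the limit of detection in the apex, with 0.67, 0.29 and 0.81 FPKM in mutant apices, against 1.19, 1.29 and 1.12 FPKM in WT apices. The mutant libraries were all lower but spread widely, and the lowest rested on about 5.7 fragments by the estimated depth. Its log2 difference was -0.48 (adjusted p = 0.00152, limma), with an adjusted p of 0.000438 to 0.0314 over the alternatives tried. The size depends on the pseudocount, at -1.0003 with 0.1 and -0.15 with 5, while the mutant mean was 49.2% of WT.

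By type, the 6 tested genes of the miR319-cut kind had log2 differences from -1.40 to -0.35 with a median of -0.73. The 2 of the TCP5 kind had -0.71 and -0.48. The 2 ranges overlap, the second value depends on the pseudocount, and the difference between the types was not tested.

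Neither low TCP3-like model on chromosome 5 reached the level needed for the test. The model arahy.R7HDMF.1 had 0.16, 0.12 and 0.04 FPKM in mutant apices, against 0.73, 0.96 and 0.57 FPKM in WT apices. Its WT apex values were its highest in any tissue, and without the filter its log2 difference was -0.66 (adjusted p = 0.000121, limma). The overlapping model arahy.TSSJ4D.1 was listed at 0 in 13 of 15 libraries and at 0.50 and 0.48 FPKM in 1 WT apex and 1 petiole library. In the authors' deposited table, all 9 members listed for this comparison were lower in the mutant at q under 0.05. That table rests on the same libraries, and its 9 members include the low model arahy.R7HDMF.1. How many of all genes pass its q was not counted here.

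**Figure D2:**
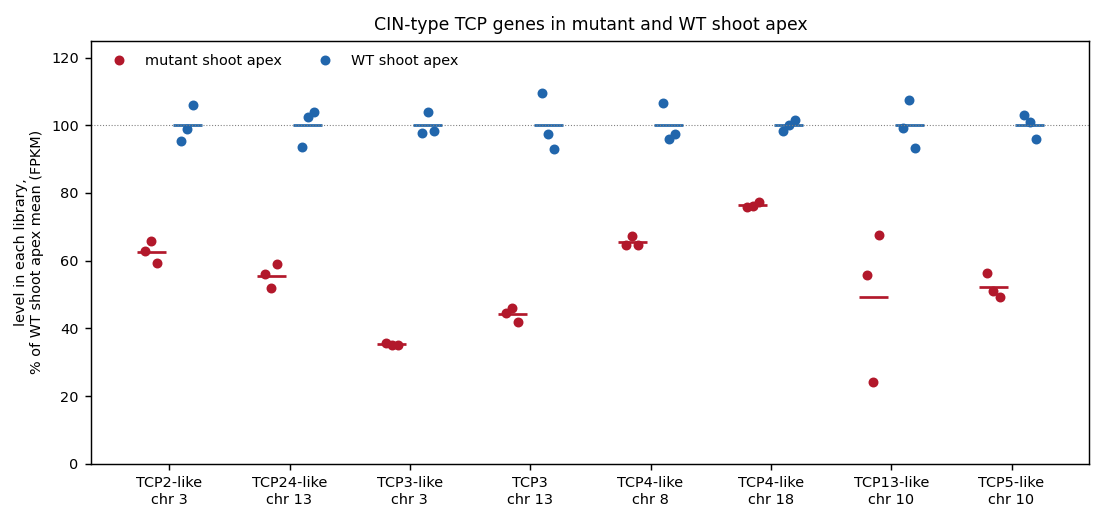
Level of each tested CIN-type TCP gene in each library as a percentage of the WT shoot apex mean, for mutant apex (left of each pair) and WT apex (right); short lines are means of 3 libraries. Mutant means run from 35.3% for the TCP3-like gene on chromosome 3 to 76.4% for the TCP4-like gene on chromosome 18, and no mutant point reaches a WT point.

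Because the members fell by different amounts, the make-up of the group differed between the apices. The 8 genes together reached 69.9 ± 0.618 FPKM in mutant apices and 127.8 ± 1.27 FPKM in WT apices (SD, n = 3 each). The TCP3 copies made up 22.7 to 23.3% of that sum in mutant libraries and 30.8 to 33.6% in WT libraries, without overlap. The TCP4-like copies made up 22.0 to 22.6% in mutant libraries and 16.8 to 17.8% in WT libraries.

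The ratio of the TCP3 copies to the TCP4-like copies within a library, a measure that scaling of whole libraries cannot move, was 1.05, 1.04 and 1.00 in mutant apices, against 1.89, 1.94 and 1.81 in WT apices. The mutant ratios lay within the range of the petiole libraries (1.12, 0.928 and 1.02). An exact two-sided permutation test of mutant against WT apices gave p = 0.1, the smallest that 3 libraries against 3 allow (adjusted p = 0.143 over 10 such tests, with the ratios chosen after the values were seen). The ratio of TCP3 copies to the TCP2-like and TCP24-like copies moved the same way, at 0.458 ± 0.0055 in mutant and 0.705 ± 0.061 in WT apices (SD, n = 3 each; exact p = 0.1).

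Both copies of each pair were lower in the mutant. The A over B ratio of the TCP3 pair was 1.09 ± 0.0521 in mutant and 1.37 ± 0.133 in WT apices, and that of the TCP4-like pair 0.770 ± 0.0197 in mutant and 0.899 ± 0.0643 in WT apices (SD, n = 3 each). Both ratios were lower in every mutant than in every WT apex library, at the smallest exact p of 0.1. The ratio of TCP2-like to TCP24-like was 1.76 ± 0.206 in mutant and 1.55 ± 0.0485 in WT apices, with overlapping libraries (exact p = 0.3). With each pair summed, the log2 differences were -1.31 for TCP3, -0.72 for TCP2-like with TCP24-like and -0.46 for TCP4-like (adjusted p = 7.80e-11, 2.19e-09 and 2.76e-07, limma).

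**Figure D3:**
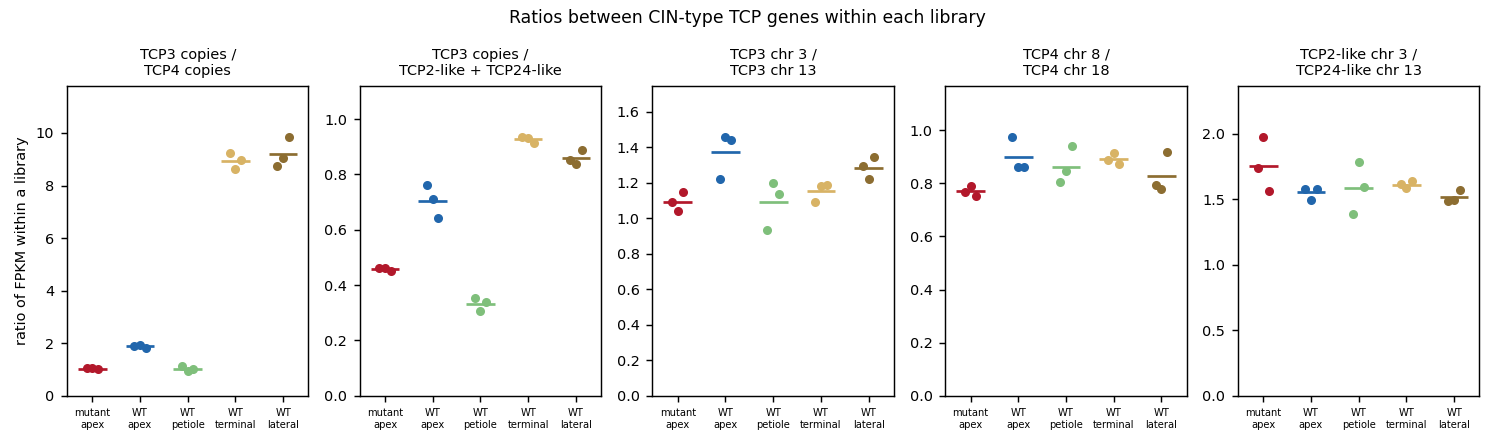
Ratios of FPKM between CIN-type TCP genes or sums of copies within each library, on linear axes from 0; points are libraries and lines are means of 3. The TCP3 to TCP4 ratio stands near 1 in mutant apex and WT petiole, near 1.88 in WT apex and near 9 in leaflets, while the ratios between copies of a pair lie between 0.753 and 1.97 in all libraries.

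Markers of other tissues moved with this comparison, in which 23.7% of all tested genes were higher and 11.9% lower. The 37 genes of the shoot apex marker list summed to 415.9 to 418.0 FPKM in mutant apices and 304.1 to 317.7 FPKM in WT apices, with 12 higher and 2 lower of 31 tested. The 89 leaf blade genes, for chlorophyll-binding, photosystem and Rubisco proteins, summed to 8502 to 8775 FPKM in mutant apices and 7644 to 8048 FPKM in WT apices, with 36 higher and 4 lower of 74 tested (27 and 9 with median ratio scaling). The 118 vascular genes summed to 809.7 to 831.4 FPKM in mutant apices and 555.7 to 560.1 FPKM in WT apices, with 26 higher and 14 lower of 67 tested. At 0 in all 3 libraries were 3 of the apex, 8 of the blade and 13 of the vascular genes in mutant apices, and 1, 11 and 14 in WT apices. The apex list is no clean marker of the apex, since 18 of its 31 tested genes were higher and 8 lower in the WT apex than in leaflets. In that comparison 35.3% of all tested genes were higher and 44.3% lower. Of the class I KNOX list, below, 17 of 20 tested genes were higher and 2 lower there. The apex list also admits knotted-1-like products that the KNOX list leaves out. Among these is the apex list's gene with the smallest p, the knotted-1-like 4 gene arahy.F096Y2.1. It was at 0.977 FPKM in mutant and 3.65 FPKM in WT apices, but at 11.3 FPKM in terminal and 13.1 FPKM in lateral leaflets. By the same rule the blade list was led by the chlorophyll a-b binding gene arahy.BTM1YE.1 (0.320 FPKM in mutant and 78.2 FPKM in WT apices). This gene went against its list, at a log2 difference of -5.93 where the list's median was 0.15, so it does not stand for the blade genes. It lies on chromosome 5 (115187819 to 115190158), and whether its position bears on this fall was not tested. The vascular list was led by the sieve element occlusion gene arahy.NQM7VB.1. That gene had 41.50 to 42.59 FPKM in mutant and 14.33 to 15.60 FPKM in WT apices. The part of apex, blade and vascular tissue in the TCP values was not tested. The WUSCHEL gene arahy.RQ3232.1, which marks stem cell centres, was at most 0.27 FPKM in mutant apices and 0.07 FPKM in WT apices, so it checks neither label, whereas class I KNOX genes, below, marked the apex clearly.

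The second set of comparisons placed the members in the WT leaf, and it shares the WT apex libraries with the mutant comparison. In the WT apex against the mean of WT leaflets, 5 of 8 tested members were lower and 0 higher, where 44.3% of all tested genes were lower and 35.3% higher. The same 5 had no apex library at or above a leaflet library, as did 38.7% of all tested genes. The median log2 difference of the members was -1.89, and -0.09 over all tested genes. The 5 were the TCP13-like gene and the TCP2-like, TCP24-like and TCP3 copies.

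The TCP13-like gene separated blade from the rest most sharply. It had 1.19, 1.29 and 1.12 FPKM in WT apices, against 72.52, 67.74 and 66.21 FPKM in terminal and 74.78, 77.19 and 74.69 FPKM in lateral leaflets. The apex mean was 1.66% of the leaflet mean, and the log2 difference was -5.05 ± 0.08 (SE; adjusted p = 2.21e-16, limma). In Arabidopsis TCP13 acts with TCP5 and TCP17 in leaf and petiole growth.

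The TCP3 pair also had most of its transcript in leaflets. The gene arahy.T0E7SC.1 had 92.28, 88.20 and 90.22 FPKM in terminal and 86.12, 90.52 and 92.71 FPKM in lateral leaflets, and its apex mean of 17.5 ± 1.49 FPKM was 19.4% of the leaflet mean (log2 difference -2.30 ± 0.06 SE, adjusted p = 7.98e-14, limma). The gene arahy.7QL5S6.1 had 100.62, 104.34 and 107.08 FPKM in terminal and 111.35, 110.39 and 124.80 FPKM in lateral leaflets, and its apex mean was 21.7% of the leaflet mean (log2 difference -2.15 ± 0.04 SE, adjusted p = 8.22e-16, limma). No apex library came near a leaflet library for either gene. The TCP2-like and TCP24-like copies stood in the WT apex at 26.1% and 26.3% of the leaflet means (log2 differences -1.90 and -1.88).

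The TCP4-like and TCP5-like genes did not follow. The gene arahy.D15RR9.1 averaged 10.4 ± 0.593 FPKM in WT apices (n = 3) and 10.2 ± 0.399 FPKM in leaflets (n = 6), a log2 difference of 0.03 ± 0.05 (SE; adjusted p = 0.613, limma). The gene arahy.6TI82F.1 averaged 11.6 ± 0.185 FPKM in WT apices and 11.8 ± 0.586 FPKM in leaflets (log2 difference -0.03, adjusted p = 0.493, limma). The TCP5-like gene averaged 4.52 ± 0.159 FPKM in WT apices and 4.87 ± 0.468 FPKM in leaflets (log2 difference -0.09, adjusted p = 0.225, limma). Libraries of the 2 tissues overlapped for all 3 genes. Here the result turns on scaling, since arahy.D15RR9.1 was called higher in the apex with quantile normalization (0.14), with TPM (0.12) and with median ratio scaling (0.12).

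The petiole held the least. All 8 tested members were lower in the WT petiole than in WT leaflets, where 44.1% of all tested genes were lower (with quantile normalization 52.5% of all calls were higher, against 41.1% without it), and 38.2% had all petiole below all leaflet libraries; the median log2 difference was -2.88 for the members and -0.11 over all tested genes. Quantile normalization moved that median of all genes by 0.14 and left the 8 calls in place. The TCP13-like gene had 0.99, 1.12 and 0.85 FPKM in petioles, 1.37% of its leaflet mean (log2 difference -5.20 ± 0.08 SE, adjusted p = 3.26e-16, limma). The gene arahy.7QL5S6.1 had 4.97, 4.78 and 5.04 FPKM in petioles, 4.49% of its leaflet mean (log2 difference -4.22 ± 0.04 SE, adjusted p = 1.47e-18, limma). The gene arahy.T0E7SC.1 had 5.31, 3.99 and 4.43 FPKM in petioles, 5.08% of its leaflet mean (log2 difference -4.03 ± 0.06 SE, adjusted p = 2.79e-16, limma). All of these petiole values lay many-fold below the lowest leaflet library.

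For the others the petiole was lower by less. The TCP2-like and TCP24-like copies were at 12.8% and 12.7% of their leaflet means, the TCP4-like copies arahy.6TI82F.1 and arahy.D15RR9.1 at 42.2% and 42.4%, and the TCP5-like gene at 66.4%. The TCP5-like gene had the smallest difference of the 8, at a log2 of -0.47 (adjusted p = 9.37e-06, limma).

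In the WT apex against the WT petiole, 7 of 8 tested members were higher, against 27.5% of all tested genes, and 0 were lower, against 27.2%. The same 7 had every apex library above every petiole library, as did 30.3% of all tested genes. The TCP3 pair led again, at log2 differences of 2.07 for arahy.7QL5S6.1 and 1.73 for arahy.T0E7SC.1 (adjusted p = 6.17e-14 and 8.63e-11, limma). The TCP4-like gene arahy.D15RR9.1 had 11.07, 9.98 and 10.12 FPKM in WT apices, against 4.08, 4.33 and 4.52 FPKM in petioles, with every apex library above every petiole library (log2 difference 1.10 ± 0.06 SE, adjusted p = 4.89e-10, limma). The TCP13-like gene was the exception, since its apex and petiole libraries overlapped (log2 difference 0.15, adjusted p = 0.218, limma).

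**Figure D4:**
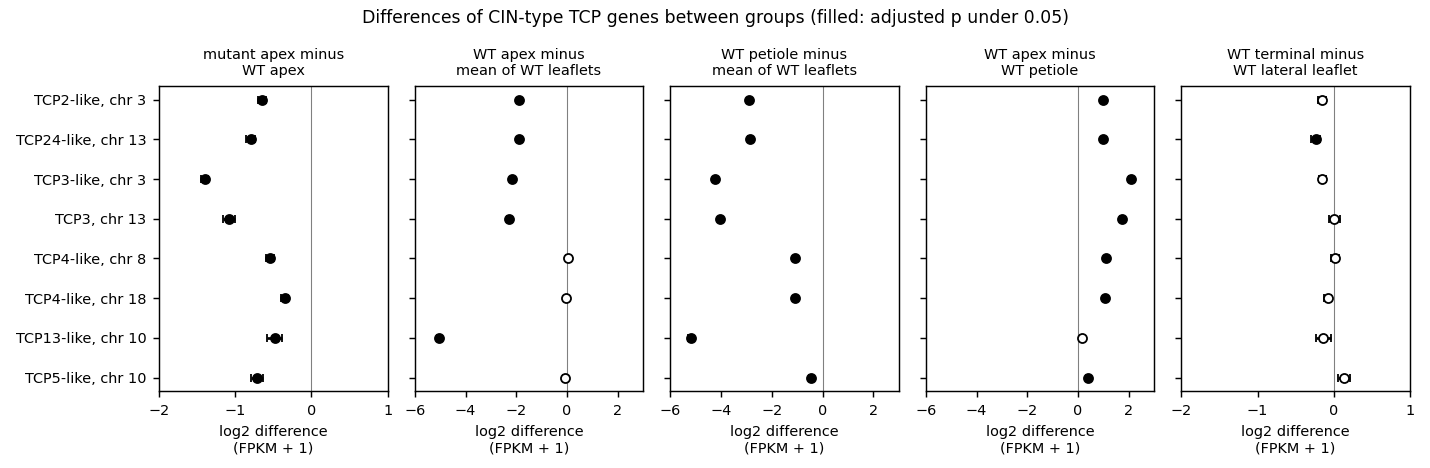
Log2(FPKM + 1) differences of the 8 tested CIN-type TCP genes in 5 comparisons, the first-named group minus the second; bars are SE from the limma fit and filled points passed an adjusted p of 0.05. Mutant apex values run from -1.40 to -0.35, WT apex and petiole values reach -5.05 and -5.20 for the TCP13-like gene, and the terminal minus lateral values lie close to 0. The horizontal scale is wider in the 3 middle panels.

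The terminal leaflet hardly differed from the lateral leaflet. Of 8 tested members 1 was lower and 0 higher, against 7.45% of all tested genes lower and 5.63% higher, which is near the background. The TCP24-like gene had 79.02, 79.93 and 81.87 FPKM in terminal leaflets, against 93.17, 96.17 and 95.18 FPKM in lateral leaflets. The libraries did not overlap, with a log2 difference of -0.24 ± 0.06 (SE; adjusted p = 0.0146, limma), but without replicate 2 of the lateral leaflet the adjusted p was 0.052. The sum of the TCP2-like and TCP24-like copies was lower in terminal leaflets as well (log2 difference -0.19, adjusted p = 0.00371, limma). The TCP3 and TCP4-like sums did not pass (-0.08 and -0.04, adjusted p = 0.364 and 0.615, limma). The TCP2-like gene had 127.45, 126.53 and 134.13 FPKM in terminal leaflets, against 138.75, 143.90 and 149.24 FPKM in lateral leaflets, and did not pass (log2 difference -0.15, adjusted p = 0.0543, limma).

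The TCP3-like gene arahy.7QL5S6.1 was similar, at a log2 difference of -0.15 (adjusted p = 0.0521, limma). Both passed with pseudocount 5, the filter at 5 FPKM, quantile normalization and TPM. Counting libraries alone, 4 members had every terminal value below every lateral value, where 19.1% of all tested genes did. The TCP3 gene arahy.T0E7SC.1 (0.01), both TCP4-like genes (0.02 and -0.08) and the TCP5-like gene (0.14) had overlapping libraries and log2 differences that did not pass. The authors' deposited table lists 5 members as higher in the lateral than in the terminal leaflet at q under 0.05 and 0 as lower. Among the 5 is the low TCP3-like model arahy.R7HDMF.1, at 0, 0 and 0.04 FPKM in terminal and 0.08, 0.25 and 0.04 FPKM in lateral leaflets. How many of all genes pass that q was not counted here.

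Ordered by mean level, the TCP2-like, TCP24-like and both TCP3 genes gave the series petiole, mutant apex, WT apex and leaflets from low to high. For these 4 genes each of the steps up to the leaflets passed the test (all tested genes were lower in the WT apex than in terminal leaflets in 42% and than in lateral leaflets in 43.2% of cases), though the petiole and mutant apex libraries of the TCP24-like gene overlapped, and between the leaflets the test was passed by the TCP24-like gene alone, although the libraries of the TCP2-like gene and of arahy.7QL5S6.1 did not overlap either. For the TCP4-like genes the petiole and then the mutant apex were lowest (36.9% of all tested genes were lower in the mutant apex than in terminal, and 38% than in lateral leaflets), and WT apex, terminal and lateral leaflets did not differ from their neighbours in the order. For the TCP13-like and TCP5-like genes the mutant apex was lowest, below the petiole (log2 differences of mutant apex against petiole -0.33 and -0.33, adjusted p = 0.0104 and 0.00160, limma). The TCP13-like values were near the limit of detection, at 0.29 to 0.81 FPKM in mutant apices and 0.85 to 1.12 FPKM in petioles. The comparison of mutant apex with petiole was not run under the alternatives. Against the petiole, the mutant apex thus had 6 members higher and 2 lower, where 32.1% of all tested genes were higher and 19.8% lower. The comparisons of mutant apex with petiole and of mutant with WT apex share the mutant libraries.

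In leaflets the summed level of the 8 genes ran from 494.3 to 506.3 FPKM (terminal) and from 531.6 to 562.8 FPKM (lateral), and in the petiole from 51.0 to 52.6 FPKM (n = 3 each). The TCP13-like gene made up 13.8% of the sum in each leaflet, 1.91% in the petiole and 0.939% in the WT apex. The TCP4-like copies made up 4.35% in terminal and 4.08% in lateral leaflets, against 18.1% in the petiole. The TCP3 to TCP4 ratio was 1.88 ± 0.0646 in WT apices (n = 3), against 8.62 to 9.83 in the 6 leaflet libraries (exact permutation p = 0.0119, two-sided, the smallest that 3 against 6 allow; adjusted p = 0.0595 over 10 tests). This test pooled terminal and lateral leaflets as 1 group, and its ratio was chosen after the values were seen.

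**Figure D5:**
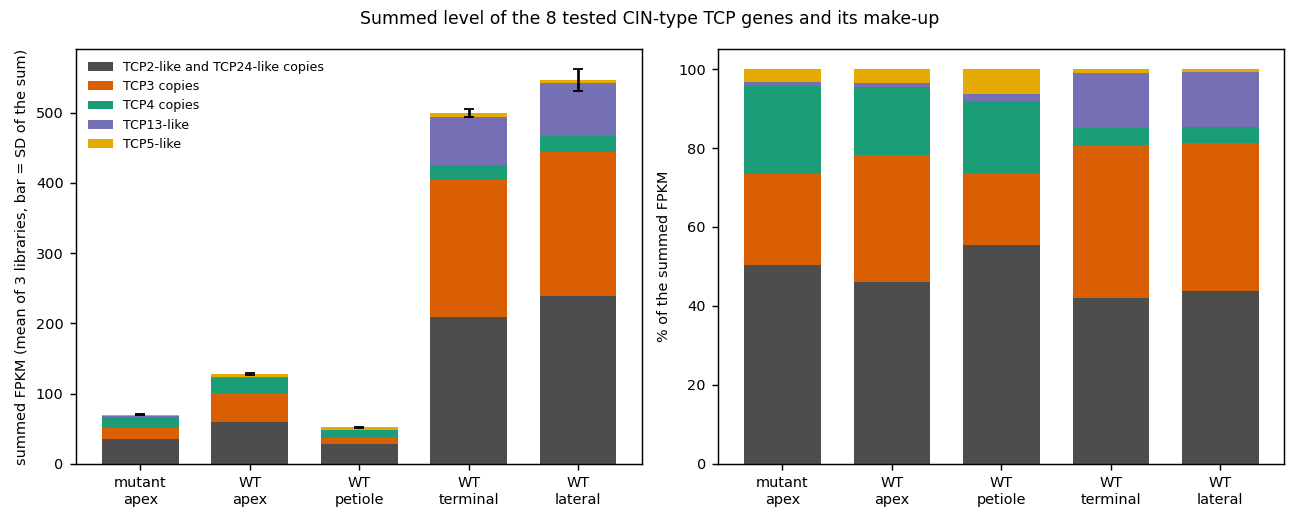
Summed FPKM of the 8 tested CIN-type TCP genes by group (left, stacked means of 3 libraries with the SD of the sum) and the share of each pair or gene in that sum (right). The sum is 69.9 in mutant apex, 127.8 in WT apex, 51.6 in petiole, 499.6 in terminal and 546.5 FPKM in lateral leaflets; the TCP13-like share is visible in leaflets, and the TCP4-like share is largest in mutant apex.

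Tissue markers set these values in place. The blade list summed to 7644 to 8048 FPKM in WT apices and 12899 to 12990 FPKM in petioles, against 34833 to 37414 FPKM in terminal and 29891 to 30558 FPKM in lateral leaflets, and the part of blade tissue in the TCP differences was not tested. In the WT apex against the petiole 27.5% of all tested genes were higher and 27.2% lower. There the blade list had 1 higher and 59 lower of 74 tested, while 7 of 8 tested TCP members were higher. What this contrast says of blade tissue in the TCP values was not tested. The vascular list summed to 469.8 to 472.6 FPKM in petioles, 261.4 to 268.3 FPKM in terminal and 256.9 to 261.9 FPKM in lateral leaflets. Its sum was higher still in the WT apex (555.7 to 560.1 FPKM). Gene by gene it went the other way, with 7 higher and 45 lower of 67 tested in the WT apex against the petiole (median log2 difference -0.43). The sum thus marks the petiole only against the leaflets.

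Besides the members, 11 genes have a product name with another TCP number, while the deposited table assigns 19 genes outside the members to the TCP family; only the 11 are described here, with TCP7, TCP8, TCP14, TCP19 and TCP20 among the 10 tested, class I members that in Arabidopsis mostly promote growth. In the mutant apex 1 was higher and 2 were lower, where 23.7% of all tested genes were higher and 11.9% lower. The sum of the 11 genes was 275.4 to 283.3 FPKM in mutant and 281.0 to 285.0 FPKM in WT apices. The smallest p was that of the gene named TCP19, at 1.21, 1.25 and 0.94 FPKM in mutant apices, against 1.93, 2.10 and 2.02 FPKM in WT apices (log2 difference -0.50, adjusted p = 0.000295, limma). In the WT apex against leaflets 8 were higher and 1 lower (8 and 0 with each of the other scalings), where 35.3% of all tested genes were higher and 44.3% lower. In the petiole against leaflets 5 were higher and 4 lower (6 and 4 with quantile normalization), against 30.8% and 44.1% of all tested genes. In the WT apex against the petiole 6 were higher and 1 lower (7 and 0 with quantile normalization, 6 and 0 with TPM), against 27.5% and 27.2%. None passed between terminal and lateral leaflets in the limma fit. Before adjustment 2 were under 0.05, the TCP8-like gene arahy.ABQ1RQ.1 and the TCP14-like gene arahy.6V3SWS.1, both with lower means in terminal leaflets (adjusted p = 0.0937 and 0.128, limma).

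Genes that act above or beside CIN-type TCP genes in Arabidopsis were read from lists of product names. Their counts in the mutant apex stand beside 23.7% of all tested genes higher and 11.9% lower. Of 39 tested genes for microRNA processing, the Dicer, argonaute and partner proteins, 8 were higher and 9 lower in the mutant apex. The gene with the smallest p was arahy.T01AUU.2, an argonaute of the PNH1 kind, which acts in meristems and leaf polarity, at 23.2 ± 0.582 FPKM in mutant and 13.8 ± 0.344 FPKM in WT apices (SD, n = 3 each; log2 difference 0.71, adjusted p = 1.18e-07, limma). Of 11 tested TOPLESS corepressors, which some TCP proteins bind through adaptor proteins, 1 was higher and 3 were lower. The topless-related gene arahy.8X014Y.1 was at 17.6 ± 0.537 FPKM in mutant and 28.2 ± 1.49 FPKM in WT apices (log2 difference -0.65, adjusted p = 9.79e-07, limma). MicroRNA precursors, miR319 among them, were not analysed here.

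Among regulators of leaf form that CIN-type TCP proteins restrain in Arabidopsis, the CUC and KNOX lists had more genes higher than lower in the mutant apex, where 23.7% of all tested genes were higher. The GRF and GIF genes, which TCP4 also restrains there, went the other way. They had 1 higher and 9 lower of 29 tested, where 11.9% of all tested genes were lower, and are described below. Of 5 tested CUP-SHAPED COTYLEDON genes, which draw organ boundaries, 4 were higher and 0 lower (3 and 1 with median ratio scaling and with quantile normalization). The CUC2-like gene arahy.B9XEKF.1 had 10.46, 10.52 and 9.72 FPKM in mutant apices, against 7.69, 7.31 and 7.20 FPKM in WT apices (log2 difference 0.42, adjusted p = 0.000566, limma). Among class I KNOX products, 20 of which were tested and which keep meristem cells undifferentiated, 11 had higher levels and 0 lower (10 and 1 with median ratio scaling and with quantile normalization, 10 and 0 with TPM). Clearest was arahy.0VJ2KM.1, a knotted-1-like homeotic gene, at 54.3 ± 3.37 FPKM in mutant and 25.4 ± 1.05 FPKM in WT apices (SD, n = 3 each; log2 difference 1.06, adjusted p = 8.26e-08, limma). The KNOX list summed to 253.8 to 267.1 FPKM in WT apices and at most 46.9 FPKM in any leaflet library.

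Other boundary and partner genes gave mixed counts. Of 16 tested LSH genes, 2 were higher and 2 lower in the mutant (2 and 4 with median ratio scaling), led by arahy.06AUCQ.2 at 7.01 ± 0.245 FPKM in mutant and 4.81 ± 0.467 FPKM in WT apices (adjusted p = 0.000717, limma). Of the 2 tested AS1 genes, partners of AS2 in KNOX repression, 1 was higher, arahy.Z9PFJZ.1 at 94.1 ± 3.57 FPKM in mutant and 84.3 ± 3.79 FPKM in WT apices (log2 difference 0.16, adjusted p = 0.0130, limma), and with median ratio scaling it did not pass (adjusted p = 0.366).

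The lists of growth and cell division differed in direction. In the mutant apex 23.7% of all tested genes were higher and 11.9% lower. Of 29 tested GRF and GIF genes, which prolong cell proliferation, 1 was higher and 9 lower (1 and 11 with median ratio scaling). The GRF9 gene arahy.FF6C67.1 was at 9.46 ± 0.573 FPKM in mutant and 14.4 ± 0.666 FPKM in WT apices (log2 difference -0.56, adjusted p = 2.65e-05, limma). Of 10 tested inhibitors of cyclin-dependent kinases 5 were higher and 1 lower, a split that became 1 and 3 with median ratio scaling, and the clearest was the inhibitor 7 gene arahy.DEJ7H2.1 at 7.70 ± 0.130 FPKM in mutant and 4.95 ± 0.658 FPKM in WT apices (adjusted p = 0.000207, limma). Of 30 tested SPL genes, which time shoot maturation, 5 were higher and 4 lower (2 and 8 with median ratio scaling), with the SPL8 gene arahy.79TY2T.1 at 54.9 ± 3.43 FPKM in mutant and 77.2 ± 1.32 FPKM in WT apices (adjusted p = 2.37e-06, limma).

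Of the hormone lists, auxin repressors of the IAA3 type had 5 higher and 0 lower of 8 tested, where 23.7% of all tested genes were higher and 11.9% lower. The IAA14 gene arahy.CB6084.1 was at 25.7 ± 1.28 FPKM in mutant and 20.1 ± 1.12 FPKM in WT apices (adjusted p = 0.000110, limma). Of 15 tested YUCCA genes of auxin synthesis 4 were higher and 2 lower (3 and 3 with median ratio scaling), and the YUCCA10 gene arahy.CLFR23.1 was at 3.22 ± 0.129 FPKM in mutant and 6.31 ± 0.534 FPKM in WT apices (adjusted p = 6.60e-06, limma).

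The jasmonate list holds lipoxygenases because Arabidopsis TCP4 activates a lipoxygenase of this pathway. Where 23.7% of all tested genes were higher and 11.9% lower, this list had 8 higher and 18 lower of 49 tested (4 and 18 with median ratio scaling and with quantile normalization). Its clearest gene, arahy.V9UCIZ.1, is a 9S-lipoxygenase, a kind that does not feed jasmonate synthesis, at 207.4 ± 1.66 FPKM in mutant and 669.7 ± 19.2 FPKM in WT apices (log2 difference -1.69, adjusted p = 7.68e-16, limma). Split by product after the values were seen, the 14 tested allene oxide synthases and cyclases, which commit the pathway, had 1 higher and 8 lower (median log2 difference -0.41). The 8 tested 13S-lipoxygenases had 2 higher and 3 lower. The 7 tested 12-oxophytodienoate reductases went the other way, with 3 higher and 1 lower (median log2 difference 0.08). The 13 tested 9S-lipoxygenases had 2 higher and 5 lower (median 0.09), and the 7 lipoxygenases without a position in the name had 0 and 1.

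Across WT tissues most of these lists were higher outside the leaflets. In the WT apex against leaflets, 26 of 29 GRF and GIF genes, 5 of 5 CUC genes, 16 of 16 LSH genes, 17 of 20 KNOX genes, 26 of 30 SPL genes, 26 of 39 microRNA processing genes and 2 of 2 AS1 genes were higher, with 2, 0, 0, 2, 3, 6 and 0 lower. Of all tested genes 35.3% were higher and 44.3% lower. The jasmonate list had 27 higher and 16 lower, and within it allene oxide synthases and cyclases had 13 higher and 0 lower of 14. TOPLESS genes (5 and 5 of 11), kinase inhibitors (4 and 4 of 10), IAA3-type genes (3 and 3 of 8; 5 and 3 with each of the other scalings) and YUCCA genes (7 and 8 of 15) were divided.

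In the petiole against leaflets, 30.8% of all tested genes were higher and 44.1% lower. LSH genes were higher in 16 of 16 cases, IAA3-type genes in 7 of 8, GRF and GIF genes in 21 of 29, SPL genes in 21 of 30, jasmonate genes in 29 of 49 and AS1 genes in 2 of 2, with 0, 0, 5, 5, 12 and 0 lower. CUC genes were higher in 1 of 5 cases, KNOX genes in 8 of 20, microRNA processing genes in 19 of 39, TOPLESS genes in 4 of 11, kinase inhibitors in 2 of 10 and YUCCA genes in 5 of 15, with 0, 2, 10, 6, 5 and 7 lower. With each of the other scalings the kinase inhibitors had 4 higher and 5 lower, and with quantile normalization the microRNA processing genes had 24 and 6. In the WT apex against the petiole, 27.5% of all tested genes were higher and 27.2% lower. There CUC genes (5 of 5), KNOX genes (17 of 20), GRF and GIF genes (25 of 29), SPL genes (21 of 30), LSH genes (11 of 16), TOPLESS genes (6 of 11) and microRNA processing genes (18 of 39) were higher, with 0, 1, 2, 2, 0, 1 and 4 lower. IAA3-type genes were instead lower in 6 of 8 cases and higher in 2. Jasmonate genes (17 higher, 13 lower), kinase inhibitors (4 and 3) and YUCCA genes (4 and 4; 4 and 6 with quantile normalization) were divided. Of the 2 AS1 genes 1 was higher and 0 lower (2 and 0 with quantile normalization and with TPM).

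Between terminal and lateral leaflets, 5.63% of all tested genes were higher and 7.45% lower. Jasmonate genes had 1 higher and 13 lower of 49 tested, GRF and GIF genes 0 and 6 of 29, and microRNA processing genes 0 and 6 of 39. IAA3-type genes had 4 and 0 of 8, LSH genes 3 and 0 of 16, and SPL genes 2 and 2 of 30. TOPLESS genes had 0 and 2 of 11, AS1 genes 0 and 2 of 2, and KNOX genes 0 and 1 of 20. With median ratio scaling TOPLESS genes had 0 and 0 and SPL genes 2 and 0. For CUC genes, kinase inhibitors and YUCCA genes no member passed in the limma fit.

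Over the 15 libraries, the profiles of the members were compared by correlation. The TCP2-like, TCP24-like and TCP3 genes correlated with each other at r = 0.99 to 0.997 (Pearson, log2 scale), the TCP4-like copies with each other at 0.974 and with these 4 genes at 0.747 to 0.842. The TCP13-like gene correlated with the same 4 genes at 0.933 to 0.97, and with the TCP4-like copies at 0.586 and 0.599. The TCP5-like gene correlated with the other members at 0.591 to 0.805. These values are descriptions that rest mainly on the gap between leaflets and other tissues. Among 21087 candidate genes at a mean of at least 5 FPKM, the gene most like arahy.JF9204.2 was arahy.XAYE67.1, an uncharacterized product (r = 0.9956), followed by arahy.D3JULP.1, a scarecrow-like protein 32 gene (0.9944), arahy.6MUT0K.1, a GDSL esterase/lipase gene (0.9940), arahy.Y8JB9L.1, a cellulose synthase-like B4 gene (0.9940), and arahy.XH4U3Y.1, uncharacterized (0.9938).

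The genes most like the mean standardised profile of the members were arahy.MDQW5U.1, uncharacterized (r = 0.9912), arahy.H92112.2, pectinesterase-like (0.9884), arahy.D3JULP.1 (0.9884), arahy.46TCXF.3, annotated as a cytochrome P450 (0.9883), and arahy.G7CVB6.1, uncharacterized (0.9873). The scarecrow-like gene arahy.D3JULP.1 was on both lists, with 0.60, 1.13 and 1.02 FPKM in mutant apices, against 2.87, 3.14 and 2.96 FPKM in WT apices. It reached 22.1 ± 1.04 FPKM in terminal and 24.9 ± 1.07 FPKM in lateral leaflets (SD, n = 3 each) and was listed at 0 in 2 of 3 petiole libraries.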

How the data were processed

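Per the labels' protocols, cDNA of 15 libraries was made from total RNA by random priming and read by Illumina sequencing. The authors deposited FPKM for 59878 genes in 1 table, to 2 decimals, with each library's column present 2 times with identical values. Aligner, quantification tool and the treatment of reads shared by copies: not given in the sources used here. TAIR10, a build of Arabidopsis, is named in the submitters' processing notes, whereas the identifiers and chromosomes are those of peanut Tifrunner, whose coordinates are printed as deposited. Leaflet columns were matched to libraries by the tissue label. The authors' deposited table also holds log2 ratios and q-values for 2 comparisons, used only where named.

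FPKM were analysed as log2(FPKM + 1) for the 39031 genes that reached 1 FPKM in 3 or more libraries, with limma 3.58.1 (trended, robust) in R 4.3.3, tables with pandas 2.3.3 and figures with matplotlib 3.10.9. The script was tested on simulated data. Fold changes on this scale understate changes of low genes; FPKM carry no counts, so no counting interval is given. Every member is named, values per library are given for the 3 members with the largest difference in each comparison and for the member with the highest mean, and of each list the gene with the smallest p in the mutant comparison is named. The members and lists were chosen with earlier results of these data known, and nothing says whether libraries came from separate plants, beyond the term biological replicates. Replicate numbers did not pair libraries (correlation of same-numbered deviations -0.055 to 0.05). Alternatives varied the pseudocount (0.1, 5), the filter (none, 5 FPKM), scaling (quantile, TPM, median ratio), a replicate block, the samples fitted and each library left out, and copies were summed; the last and median ratio scaling were added after seeing the data.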

Additional observations from a re-analysis of the deposited data

How the results depend on the processing

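All 8 calls in the mutant comparison, the 8 in petiole against leaflets, the 5 in WT apex against leaflets and the 7 in WT apex against petiole held in every setting that tested the gene, each library left out included (without the TCP5-like gene at a filter of 5 FPKM, where 7 members remained). Summing copies left 5 units, and fewer genes were tested. Of these units 5 were lower in the mutant, 3 in WT apex against leaflets and 5 in petiole against leaflets, and 4 were higher in WT apex against petiole. Among the summed pairs, only TCP2-like with TCP24-like passed between terminal and lateral leaflets (log2 difference -0.19, adjusted p = 0.00371, limma). Terminal against lateral leaflets gave 3 lower with pseudocount 5, the filter at 5 FPKM, quantile normalization and TPM, and 2 with only the groups compared, against 1; the cause was not tested. Values that changed sign were small and not called: for arahy.T0E7SC.1 in terminal against lateral leaflets -0.0198 (quantile), -0.0081 (TPM) and, leaving out 1 library, -0.0218 to 0.0308; for arahy.D15RR9.1 there -0.0065 to 0.0516 leaving out 1 library; in WT apex against leaflets 0.0762 (quantile), 0.0640 (TPM) and 0.0638 (median ratio) for arahy.6TI82F.1, 0.0639 (quantile) for arahy.U9727D.1 and, leaving out 1 library, -0.0151 to 0.0532 for arahy.D15RR9.1. With the replicate number as a block the member counts were 8, 1, 5, 8 and 7, as without it, and 13529 genes were called in the mutant comparison against 13876; 2 of 15 libraries correlated best with one of their own number. Depth limits the TCP13-like gene outside leaflets and both chromosome 5 models.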
